A study of Mus musculus with 12 samples.

Results

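The small leucine-rich proteoglycans are a family of secreted matrix proteins, represented here by 10 genes, Dcn, Lum, Ogn, Bgn, Fmod, Aspn, Prelp, Omd, Kera and Epyc, of the 24255 genes in the deposited table. The genes were chosen by their symbols as members of the family, with the higher levels of Dcn, Lum and Ogn in CKO ovaries already known, so their values in the 2 genotypes are given as a description. RNA was sequenced from whole mouse ovaries. The CKO group (5 libraries) carried a conditional knockout of the kinase gene Mtor, removed by Gdf9-Cre, a recombinase made where the oocyte gene Gdf9 is active, so the other cells of the ovary keep the gene. The WT group (7 libraries) was labelled wild type. All mice were on the C57BL/6 strain, were 6 months old and had been given 5 IU of equine chorionic gonadotropin, which drives follicle growth, 46 h before collection.

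Each protein of this family has a small core made of leucine-rich repeats, bent into a curved solenoid, that binds collagen and sets the width and spacing of collagen fibrils. Many members carry chondroitin, dermatan or keratan sulfate chains, and several also bind growth factors such as TGF-beta or cell surface receptors. In the ovary they are made mainly by stromal and thecal cells, and decorin is the best known of them in follicle walls and stroma. The family is divided into classes by sequence, with Dcn, Bgn and Aspn in class I, Lum, Fmod, Prelp, Omd and Kera in class II, and Ogn and Epyc in class III.

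Most members lie in clusters of neighbouring genes. Dcn, Lum, Kera and Epyc lie on the plus strand of chromosome 10 within 202.8 kb (mm10, chr10:97479609-97682454). Aspn, Omd and Ogn follow the related gene Ecm2 on the plus strand of chromosome 13 within 119.7 kb (chr13:49504810-49624501). Prelp (minus strand, chr1:133910304-133921414) and Fmod (plus strand, chr1:134037254-134048277) lie on chromosome 1, and Bgn on the plus strand of the X chromosome (chrX:73483602-73495933). The whole cluster on chromosome 13 lies within the span of Cenpp, a centromere protein gene on the opposite strand, and the authors' table gives these 5 genes 1 common locus. Cenpp shares 7 exonic bases with Aspn and 0 with Omd, Ogn or Ecm2. The exons of Prelp share 350 bases with those of the antisense RNA gene Gm15851. The use of strand in counting is not given in the sources used here, so the value of Prelp may include antisense reads.

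RefSeq promoter windows (GRCm38.p6, 250 bases before to 50 after the start) were matched for 8 of the 10 members, with Dcn and Lum not matched. The windows of the neighbours Aspn, Omd and Ogn are printed because these genes share a cluster and a strand while their fold changes differed in sign, and that of Bgn because it stands alone on another chromosome. All are on the plus strand, written 5′ to 3′, at chr13:49544193-49544492 for Aspn, chr13:49582212-49582511 for Omd, chr13:49607765-49608064 for Ogn and chrX:73483351-73483650 for Bgn. Capitals mark matches on either strand to the TATA box TATAAA, the GC box GGGCGG, the AP-1 site TGANTCA or the SMAD box pair GTCTAGAC.
Aspn: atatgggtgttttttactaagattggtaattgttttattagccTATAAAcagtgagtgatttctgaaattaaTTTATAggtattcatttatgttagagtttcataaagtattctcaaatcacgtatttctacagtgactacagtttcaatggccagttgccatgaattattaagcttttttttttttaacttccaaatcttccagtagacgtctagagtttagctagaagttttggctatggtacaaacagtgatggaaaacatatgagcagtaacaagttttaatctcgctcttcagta
Omd: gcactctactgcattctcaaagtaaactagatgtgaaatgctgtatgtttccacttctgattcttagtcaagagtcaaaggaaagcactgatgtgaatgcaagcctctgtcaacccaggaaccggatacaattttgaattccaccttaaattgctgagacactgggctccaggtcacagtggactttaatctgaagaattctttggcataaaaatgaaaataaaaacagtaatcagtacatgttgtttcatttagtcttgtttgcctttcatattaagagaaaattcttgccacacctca
Ogn: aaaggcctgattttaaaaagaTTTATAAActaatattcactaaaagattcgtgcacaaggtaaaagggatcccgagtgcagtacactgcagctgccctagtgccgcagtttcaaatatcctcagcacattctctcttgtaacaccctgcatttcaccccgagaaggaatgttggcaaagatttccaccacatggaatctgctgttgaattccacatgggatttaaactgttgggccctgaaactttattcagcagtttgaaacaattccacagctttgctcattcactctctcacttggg
Bgn: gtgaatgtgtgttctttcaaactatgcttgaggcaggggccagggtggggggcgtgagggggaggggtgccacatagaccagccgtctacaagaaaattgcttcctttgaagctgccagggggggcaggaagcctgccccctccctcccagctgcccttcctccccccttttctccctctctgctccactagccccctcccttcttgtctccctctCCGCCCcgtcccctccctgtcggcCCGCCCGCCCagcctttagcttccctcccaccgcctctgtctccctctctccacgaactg
The Aspn window held TATAAA at 2 places, with first bases at -207 and -178 relative to the start. The Ogn window held it on both strands in 1 overlapping stretch, with first bases at -229 and -227. The Bgn window held 3 GC boxes, 2 of them overlapping, with first bases at -34, -10 and -6, and had 63.7% G and C bases, against 31.0% for Aspn, 37.7% for Omd and 42.3% for Ogn. The Omd window held none of the 4 motifs, and neither did those of Fmod, Prelp, Kera and Epyc. Among all 32851 RefSeq windows of this length, 13.6% held TATAAA, 35.7% held GGGCGG, 7.81% held TGANTCA and 0.213% held GTCTAGAC, and the median G and C content was 52.7%. These matches describe the letters of the windows only.

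Levels are in FPKM, which divides fragments by transcript length and by library size, so that genes can be compared. Judged from the spacing of low values, the deepest of the 12 libraries had 2.18 times the depth of the shallowest, with 1 fragment on a 1 kb transcript worth 0.308 to 0.670 FPKM. The labels name no animals, so p-values measure the spread between libraries. For 1 WT library the column name fits more than 1 sample label, and it is called the unnumbered WT library. Mtor RNA of the whole ovary was at 5.02 ± 0.499 FPKM in CKO (SD, n = 5) and 4.70 ± 0.702 FPKM in WT (SD, n = 7), which does not check the labels because only oocytes lose the gene. The tissue label was matched by granulosa markers, whose summed level lay between 1329 and 2476 FPKM in CKO and between 3713 and 6621 FPKM in WT. CKO replicates 2 and 3 stood apart in Ovgp1, a secreted glycoprotein of the oviduct, at 252 and 81.9 FPKM, against 1.87 FPKM or less in the other 10 libraries. Summed blood markers were at 276 and 316 FPKM in CKO replicates 1 and 5 and at 248 FPKM in WT replicate 1. The unnumbered WT library had the luteal marker Sfrp4 at 71.3 FPKM, against 1246 to 5095 FPKM in the other WT libraries. It had the granulosa marker Cyp19a1 at 1.26 FPKM, against 28.8 to 88.9 FPKM in those libraries. It had another granulosa marker, Amh, at 309 FPKM, above the 35.1 to 126 FPKM of those libraries. Its granulosa sum of 3716 FPKM lay within the range of the others. In whole ovaries, a change in the number of cells of a type and a change in RNA per cell cannot be told apart.

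Values above 0 were listed for 8 members, and Kera and Epyc were listed at 0 in all 12 libraries. The 8 detected members together were at 2112 ± 240 FPKM in CKO (SD, n = 5) and 870 ± 85.3 FPKM in WT (SD, n = 7), with every CKO library above every WT library. Fold changes are given on the log2(FPKM + 1) scale, CKO over WT, with the SE of a limma fit to all 13168 genes that reached 1 FPKM in at least 5 libraries. In that fit, genes with a Benjamini-Hochberg adjusted p under 0.05 are called. Dcn, Lum, Bgn, Aspn, Ogn and Prelp were called higher, which is 6 of 8 members tested, beside 8.70% of all genes tested. None of the 8 was called lower, beside 7.59% of all genes. Omd had an unadjusted p under 0.05 in the lower direction (1 gene). The genotypes did not overlap for Dcn and Lum, 2 of 8, beside 7.73% of all genes. The median log2 fold change of the 8 was 0.65, and that of all genes tested was -0.01. As the family was proposed with this comparison in view, these counts support nothing beyond the values themselves.

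**Figure D1:**
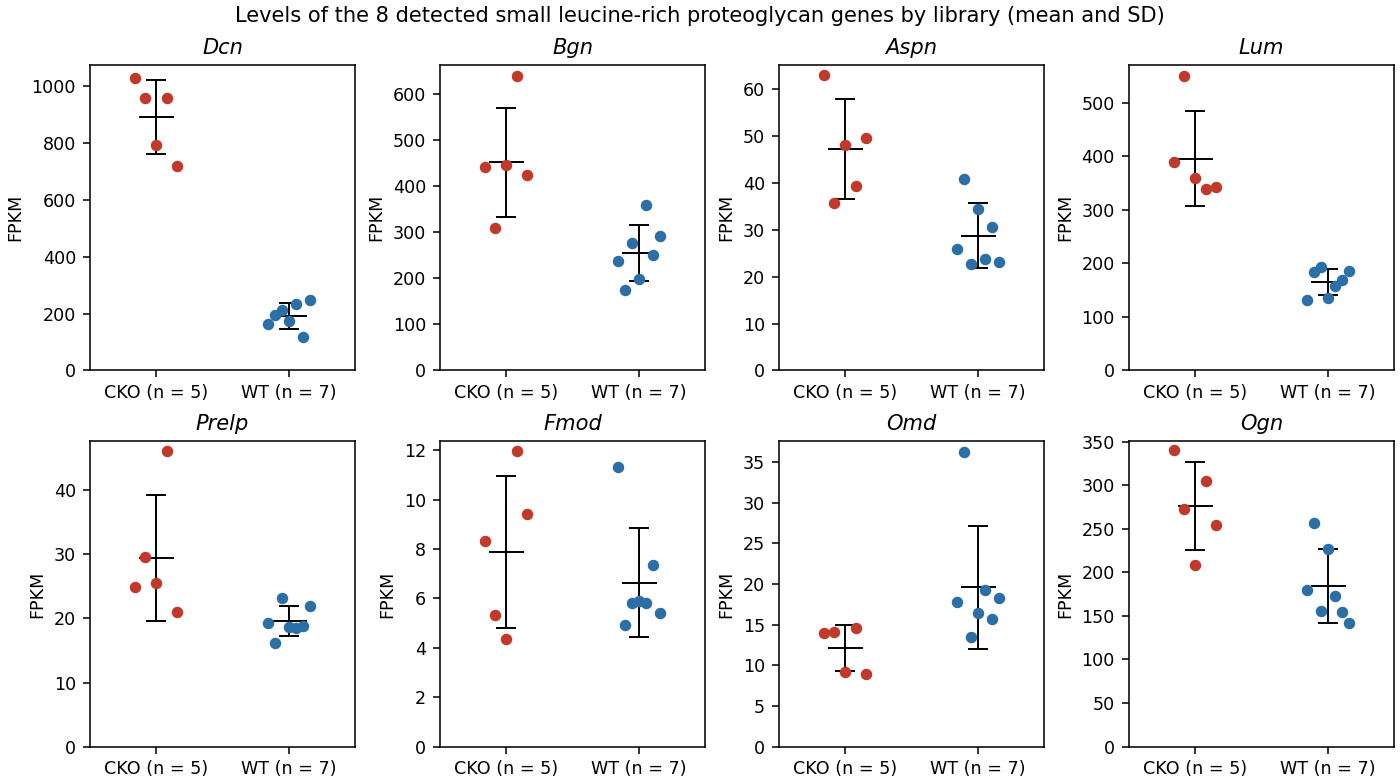
FPKM of the 8 detected members in each library, 1 panel per gene with its own linear axis from 0; points are libraries, with CKO (n = 5) in red left of WT (n = 7) in blue, and bars give the mean and SD. Dcn and Lum of all CKO libraries lie above all WT libraries, Omd lies lower in CKO with overlap, and Fmod overlaps widely.

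Dcn encodes decorin, the class I member that binds collagen fibrils and holds TGF-beta in the matrix. It was at 1028, 960, 793, 958 and 720 FPKM in CKO replicates 1 to 5, against 162, 196, 213, 173, 233 and 116 FPKM in WT replicates 1, 2, 3, 4, 6 and 7 and 247 FPKM in the unnumbered WT library. The lowest CKO library was at 720 FPKM and the highest WT library at 247 FPKM. The fitted log2 fold change was 2.24 (SE 0.17), a ratio of means of 4.66, and 23 of the 13168 genes had a higher log2 fold change. Dcn was the 30th to 56th most abundant gene in the CKO libraries and the 173rd to 606th in the WT libraries. In fits leaving out 1 library, its log2 fold change lay between 2.13 and 2.31.

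Bgn encodes biglycan, the nearest relative of decorin, which also signals through Toll-like receptors when it is released from the matrix. It was at 440, 309, 445, 638 and 423 FPKM in CKO replicates 1 to 5, against a WT range of 173 to 358 FPKM with a median of 249.7 FPKM. Of the 5 CKO libraries, 4 lay above the highest WT library, and CKO replicate 2 lay within the WT range. The fitted log2 fold change was 0.82 (SE 0.19). Dcn exceeded Bgn in every CKO library, with a Dcn to Bgn ratio of 1.501 to 3.10, and in WT the ratio was 0.465 to 1.13, above 1 in replicate 2 only. Aspn encodes asporin, a class I protein that binds collagen and calcium and carries no sulfated chains. It was at 63.1, 35.8, 48.2, 39.4 and 49.6 FPKM in CKO replicates 1 to 5, against 22.6 to 40.8 FPKM in WT with a median of 25.9 FPKM. In 3 CKO libraries it lay above the highest WT library, and the fitted log2 fold change was 0.70 (SE 0.17). Without CKO replicates 1 and 5 it was not called (log2 fold change 0.52). It was also not called in the fit with a replicate block, described below, or in the same libraries without the block (log2 fold change 0.58 in both).

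Lum encodes lumican, a class II keratan sulfate proteoglycan that regulates fibril width, best known from the cornea. It was at 390, 549.6, 359, 338 and 342 FPKM in CKO replicates 1 to 5, against 131 to 193 FPKM in WT with a median of 169 FPKM. All CKO libraries lay above all WT libraries, and replicate 2, the library with the most Ovgp1, was the highest. Replicate 3, the next in Ovgp1, was at 359 FPKM, below the 390 FPKM of replicate 1. The fitted log2 fold change was 1.24 (SE 0.14), and without CKO replicate 2 it was 1.12. The part of oviduct tissue in this value was not tested.

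Prelp, Fmod and Omd, the other detected class II genes, were present at lower levels. Prelp encodes a protein that links collagen to basement membranes through a heparin-binding end. It was at 24.9, 29.6, 25.5, 46.2 and 21.1 FPKM in CKO replicates 1 to 5, against 16.2 to 23.2 FPKM in WT with a median of 18.9 FPKM. In 4 CKO libraries it lay above the WT range and replicate 4 was far above the others. The fitted log2 fold change was 0.52 (SE 0.16), and 8 of the 12 leave-one-out fits did not call it, with the largest move without CKO replicate 4, where the log2 fold change was 0.35. Those 8 fits left out CKO replicate 2, 3 or 4 or WT replicate 1, 2, 4, 6 or 7. Fmod encodes fibromodulin, which shares its collagen site with lumican. It was at 8.32, 5.34, 4.35, 11.97 and 9.42 FPKM in CKO replicates 1 to 5, against 4.92 to 11.3 FPKM in WT with a median of 5.82 FPKM. The groups overlapped almost fully, and the log2 fold change of 0.18 (SE 0.23) was not called.

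Omd encodes osteomodulin, also called osteoadherin, a keratan sulfate protein known from bone. It was at 14.0, 14.1, 9.19, 14.6 and 8.88 FPKM in CKO replicates 1 to 5, against 17.8, 36.2, 13.5, 16.4, 19.3 and 15.7 FPKM in WT replicates 1, 2, 3, 4, 6 and 7 and 18.2 FPKM in the unnumbered WT library. All 5 CKO libraries lay below the WT median of 17.8 FPKM, and 2 of them below the lowest WT library. It was the member with a negative log2 fold change, -0.61 with an SE of 0.21, and it was not called with all 12 libraries. Without WT replicate 3, the lowest WT library, it was called lower with a log2 fold change of -0.69.

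Ogn encodes osteoglycin, or mimecan, the class III member of stromal and vascular matrix. It was at 341, 273, 208, 305 and 254 FPKM in CKO replicates 1 to 5, against 179, 257, 156, 227, 173 and 154 FPKM in WT replicates 1, 2, 3, 4, 6 and 7 and 141 FPKM in the unnumbered WT library. In 3 CKO libraries it lay above the highest WT library, and the others lay within the WT range. The fitted log2 fold change was 0.59 (SE 0.16). The call was lost without CKO replicate 1 (log2 fold change 0.51) or CKO replicate 4 (0.55). Kera, which encodes the corneal protein keratocan, and Epyc, which encodes epiphycan of growth cartilage, had no value above 0. A listed 0 may be a failed estimate, since 11 of 80 ribosomal protein genes were also at 0 in all libraries, so absence was not shown.

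In the authors' deposited table, 5 members, Dcn, Lum, Bgn, Ogn and Prelp, have a q-value under 0.05 and higher levels in CKO. Of all 24255 genes in that table, 1076 have such a q-value with higher levels in CKO and 882 with lower levels. Aspn has a log2 fold change of 0.71 and a q-value of 0.432 in the authors' deposited table, which is the 1 member called in the limma fit and not by the authors. The authors' table gives Omd a log2 fold change of -0.69 and a q-value of 0.793.

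**Figure D2:**
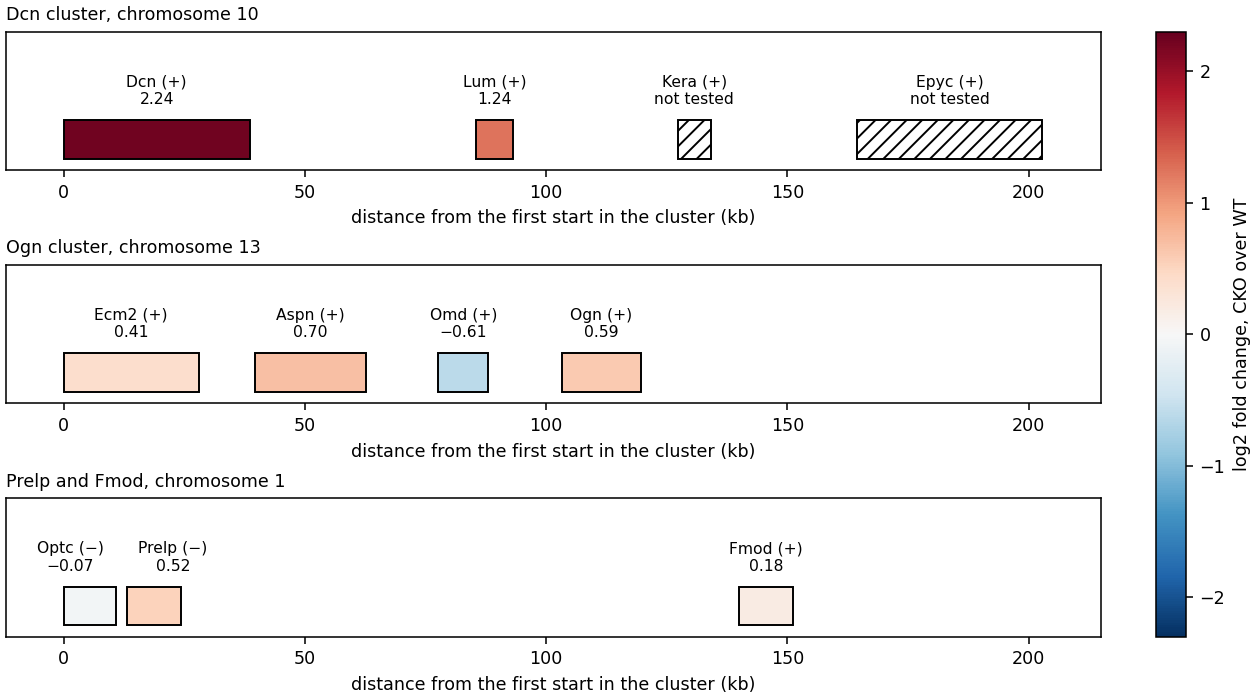
Maps to scale of the 3 clusters, with distance in kb from the first start of each cluster; boxes are genes with their strand and log2 fold change of CKO over WT, coloured by that value, and hatched boxes were not tested. Dcn (2.24) and Lum (1.24) lie beside Kera and Epyc, and Omd (-0.61) lies between Aspn (0.70) and Ogn (0.59).

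The fold changes of the neighbours on chromosome 13 differed in sign, although that of Omd was not called. The ratio of Ogn to Omd was 19.4 to 28.6 in CKO libraries and 7.10 to 13.8 in WT libraries, without overlap. The ratio of Ogn to Aspn was 4.32 to 7.74 in CKO and 5.03 to 7.26 in WT, with overlap. In WT the 3 genes were all highest in replicate 2, at 257 FPKM for Ogn, 36.2 FPKM for Omd and 40.8 FPKM for Aspn, while that library had the lowest Bgn, Prelp and Fmod of the WT group. Ecm2, the neighbour that encodes a related matrix protein, was at 8.12 ± 2.19 FPKM in CKO (SD, n = 5) and 5.77 ± 0.873 FPKM in WT (SD, n = 7) and was not called (adjusted p = 0.0958, limma).

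The composition of the family differed between the genotypes. Dcn made up 42.1 ± 2.18% of the summed FPKM in CKO (SD, n = 5) and 21.8 ± 3.46% in WT (SD, n = 7), without overlap. The share of Lum was 18.8 ± 4.02% in CKO and 19.0 ± 2.51% in WT. The share of Bgn was 21.4 ± 4.94% in CKO and 29.2 ± 5.65% in WT, and that of Ogn was 13.03 ± 1.42% in CKO and 21.3 ± 5.25% in WT. The 4 minor members, Aspn, Prelp, Omd and Fmod, made up 4.58 ± 0.393% in CKO and 8.65 ± 1.51% in WT. The shares sum to the whole in each library, so they are not independent of each other.

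**Figure D3:**
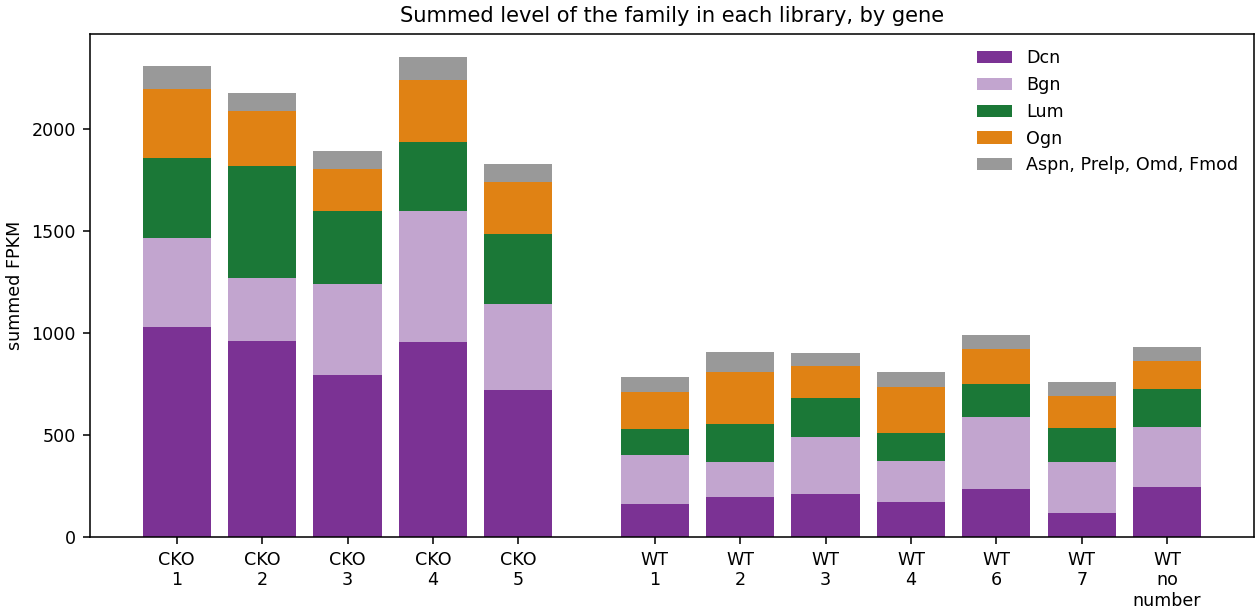
Summed FPKM of the family in each library as stacked bars from 0, with CKO replicates left of WT replicates and colours for Dcn, Bgn, Lum, Ogn and the 4 minor members. CKO sums lie between 1828 and 2352 FPKM and WT sums between 762 and 989.5 FPKM, and Dcn is the tallest part of every CKO bar.

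In order of mean level, CKO libraries held Dcn, Bgn, Lum, Ogn, Aspn, Prelp, Omd and Fmod. Dcn exceeded Bgn without overlap of their ranges, and so did Ogn over Aspn and Prelp over Omd. The ranges of Bgn and Lum, Lum and Ogn, Aspn and Prelp, and Omd and Fmod overlapped. In WT the order was Bgn, Dcn, Ogn, Lum, Aspn, Omd, Prelp and Fmod. There the ranges of the first 4 overlapped from each to the next, with Dcn above Ogn in 3 of 7 libraries and Ogn above Lum in 4 of 7. Lum exceeded Aspn and Prelp exceeded Fmod without overlap, while Omd and Prelp had nearly equal means of 19.6 and 19.5 FPKM and Omd was the higher in 2 of 7 libraries.

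Covariation among WT libraries, which the choice of the genes did not use, was tested between Dcn and each of the other 7 members on log2(FPKM + 1). None of the 7 relations passed. Pearson's r over the 7 WT libraries was 0.36 with Lum, 0.38 with Bgn, 0.31 with Prelp, 0.18 with Omd, -0.07 with Ogn, -0.42 with Aspn and -0.54 with Fmod. The smallest exact two-sided permutation p of r was 0.215, with Fmod, and all 7 adjusted p were 0.708 or more. Spearman's rho lay between -0.75 with Fmod (exact permutation p = 0.0663, adjusted p = 0.412) and 0.61 with Bgn (exact permutation p = 0.167, adjusted p = 0.412), and the other 5 had adjusted p of 0.412 or more. Without WT replicate 7 and the unnumbered WT library, which lay farthest from the median Dcn, r ranged from -0.64 with Fmod to 0.69 with Lum. The CKO group, with 5 libraries, was not tested. As a description, the genes whose deviations from the group means were most like those of Dcn over the 12 libraries were D430019H16Rik, Khdrbs1, Nosip, Shisa2 and 4933412E12Rik, with r of 0.94, 0.89, 0.88, 0.87 and 0.86. None of these 5 was called between the genotypes (adjusted p from 0.103 to 0.853, limma; 1 at an unadjusted p under 0.05). Among members the highest was Lum, with r of 0.36 at place 2357 of 13167 genes.

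Some marker lists of other cells differed between the genotypes and others had no gene called. The counts of called markers stand beside 8.70% of all genes called higher and 7.59% called lower. Of 10 stromal fibroblast markers, 9 were tested, and Tcf21, Dpt, Clec3b and Mgp were called higher and 0 lower. Their summed level, mostly that of the matrix protein gene Mgp, was 1303 to 1999 FPKM in CKO and 586 to 1232 FPKM in WT. Pdgfra, the receptor that marks stromal fibroblasts, was at 51.2 ± 12.3 FPKM in CKO (SD, n = 5) and 34.1 ± 12.5 FPKM in WT (SD, n = 7) and was not called (adjusted p = 0.0603, limma). Relative to the stromal sum, Dcn was at 0.392 to 0.737 in CKO and 0.146 to 0.295 in WT, without overlap. The same ratio overlapped for Lum (0.186 to 0.422 in CKO and 0.151 to 0.247 in WT), Bgn (0.220 to 0.357 in CKO and 0.232 to 0.400 in WT) and Ogn (0.138 to 0.210 in CKO and 0.115 to 0.387 in WT). Summed markers of macrophages were at 1559 to 4604 FPKM in CKO and 447 to 1393 FPKM in WT, with 9 of 10 higher. Those of mast cells were at 55.6 to 264 FPKM in CKO and 0.616 to 14.2 FPKM in WT, with 5 of 5 tested higher, and immediate-early genes at 1453 to 6353 FPKM in CKO and 357 to 1991 FPKM in WT, with 5 of 8 higher. All 10 granulosa markers and 5 of 6 tested oocyte markers were lower. None of 7 smooth muscle or 6 theca and steroidogenic markers was called in either direction. The theca and steroidogenic sum, mostly that of Hsd3b1, was 7052 to 18194 FPKM in CKO and 7865 to 19961 FPKM in WT. Of these markers, Cyp17a1 was at 7.95 to 30.2 FPKM in CKO and 1.46 to 267 FPKM in WT. The lowest WT value of Cyp17a1 was that of the unnumbered library, and the next was 41.2 FPKM in replicate 7. Of 5 tested surface epithelium markers, Krt19 was higher and 0 lower, with sums of 79.5 to 360 FPKM in CKO and 65.0 to 156 FPKM in WT. Of 5 luteal markers, Parm1 was lower and 0 higher, with sums of 1890 to 7542 FPKM in CKO and 167 to 5960 FPKM in WT. The lowest luteal sum was that of the unnumbered WT library, and the next in WT was 1501 FPKM in replicate 6. The summed cartilage, bone and tendon markers were at 27.3 to 149 FPKM in CKO and 23.5 to 209 FPKM in WT, with Col9a1 and Tnmd at 0 in all libraries, and adipocyte markers at 1.08 to 4.22 FPKM in CKO and 3.80 to 14.4 FPKM in WT. The part of these cells in the levels of the family was not tested.

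**Figure D4:**
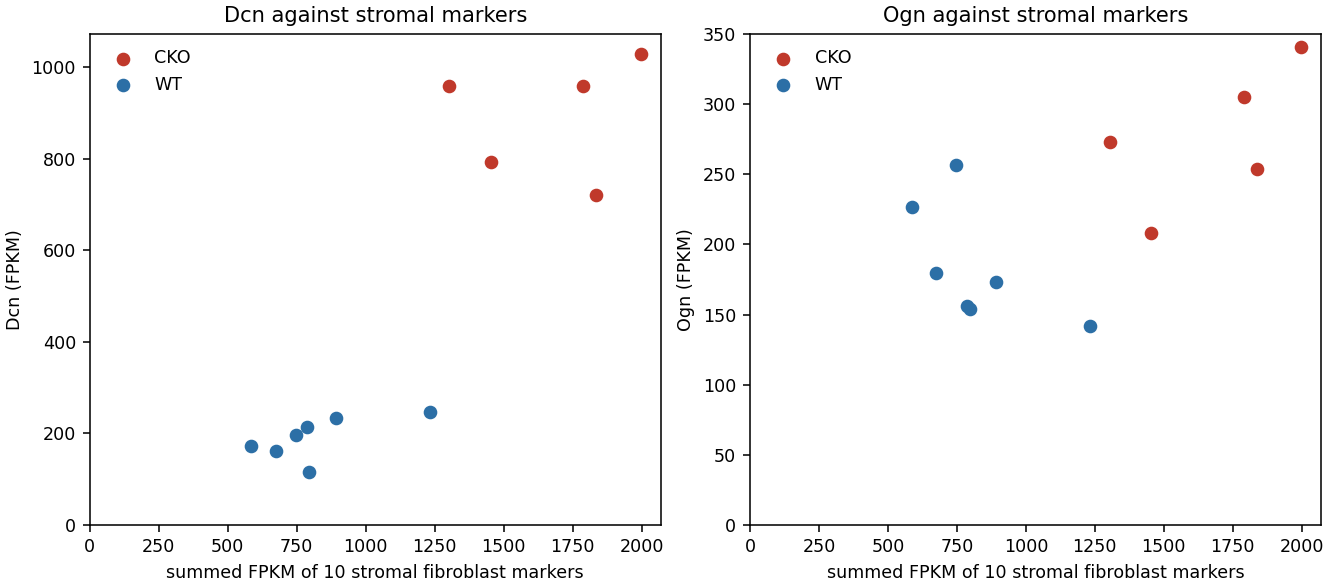
FPKM of Dcn (left) and Ogn (right) against the summed FPKM of 10 stromal fibroblast markers, with 1 point per library, CKO red and WT blue, on linear axes from 0. The CKO points of Dcn, 720 to 1028 FPKM, lie far above those of WT, 116 to 247 FPKM, whereas Ogn of the genotypes overlaps.

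Genes around the family were read from the same fit, in lists drawn up from textbook roles with earlier results of these data known. Their counts are therefore given as a description. Of 8 related leucine-rich matrix genes, 6 were tested, and Tsku and Nyx were called higher and 0 lower, with a median log2 fold change of 0.17. These 2 and 0 of 6 stand beside 8.70% of all genes called higher and 7.59% called lower. Tsku encodes tsukushi, a secreted inhibitor of BMP and other signals, and was at 19.3 ± 2.72 FPKM in CKO (SD, n = 5) and 11.9 ± 3.38 FPKM in WT (SD, n = 7; adjusted p = 0.0146, limma). Without CKO replicates 1 and 5, or without CKO replicates 2 and 3, it was not called (adjusted p = 0.0878 and 0.0561, limma). Nyx, which encodes the retinal protein nyctalopin, was at 4.502 ± 2.43 FPKM in CKO and 2.08 ± 0.795 FPKM in WT (adjusted p = 0.0470, limma), and 9 of the 12 leave-one-out fits did not call it.

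Of 27 genes for enzymes that build the sulfated chains, 24 were tested and 5 were lower (Chst11, Chsy1, Chst2, Chst1 and Fam20b), beside 7.59% of all genes called lower. None was called higher in the limma fit, with 1 at an unadjusted p under 0.05 in that direction, beside 8.70% of all genes called higher. Their median log2 fold change was -0.12, and that of all genes was -0.01. Chst11, which sulfates chondroitin, was at 58.2 ± 12.04 FPKM in CKO (SD, n = 5) and 99.6 ± 18.04 FPKM in WT (SD, n = 7), without overlap (adjusted p = 0.00267, limma). Chsy1, a chondroitin synthase, was at 18.5 ± 3.46 FPKM in CKO and 29.99 ± 4.85 FPKM in WT, without overlap (adjusted p = 0.00395, limma). Chst2, a sulfotransferase that acts on N-acetylglucosamine, was at 12.9 ± 2.14 FPKM in CKO and 20.7 ± 3.003 FPKM in WT (adjusted p = 0.0042, limma). These falls stood beside lower levels of all 10 granulosa markers, and the part of granulosa cells in them was not tested.

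Other proteoglycan core proteins split in direction. Of 22 genes, 18 were tested, Srgn, Sdc4 and Acan were higher and Vcan, Sdc1, Sdc3 and Gpc4 lower, with a median log2 fold change of -0.20. These 3 and 4 of 18 stand beside 8.70% of all genes called higher and 7.59% called lower. In each leave-one-out fit, the list had 1 or 2 genes called higher and 2 to 4 called lower. Srgn, the core protein of mast cell and leukocyte granules, was at 140 ± 66.8 FPKM in CKO (SD, n = 5) and 45.7 ± 5.27 FPKM in WT (SD, n = 7; adjusted p = 0.000442, limma), beside the mast cell and macrophage sums above. Vcan, the hyaluronan-binding proteoglycan versican, was at 9.13 ± 4.25 FPKM in CKO and 28.7 ± 13.5 FPKM in WT, without overlap (adjusted p = 0.00231, limma). Sdc1, the cell surface proteoglycan syndecan-1, was at 86.0 ± 53.4 FPKM in CKO and 231 ± 75.5 FPKM in WT (adjusted p = 0.00816, limma), and without CKO replicates 2 and 3 it was not called (adjusted p = 0.0619, limma).

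Of 23 genes of collagen fibrils and their assembly, 19 were tested, Loxl1 and Eln were higher and Col11a1 lower, with a median log2 fold change of 0.27. These 2 and 1 of 19 stand near the 8.70% of all genes called higher and 7.59% called lower, and 6 genes of the list were higher and 1 lower at an unadjusted p under 0.05. Loxl1, an enzyme that crosslinks elastic fibres, was at 51.4 ± 7.97 FPKM in CKO (SD, n = 5) and 26.4 ± 9.15 FPKM in WT (SD, n = 7; adjusted p = 0.00511, limma). Eln, which encodes elastin, was at 8.87 ± 2.95 FPKM in CKO and 5.10 ± 1.30 FPKM in WT (adjusted p = 0.0442, limma), and 9 of the 12 leave-one-out fits did not call it. Col11a1, a minor fibrillar collagen, was at 1.70 ± 0.896 FPKM in CKO and 3.90 ± 1.71 FPKM in WT (adjusted p = 0.0428, limma), and 8 of the 12 did not call it. The fibrillar collagen genes Col1a1, Col1a2, Col3a1 and Col5a1 were not called, and are named here after their values were seen. Col1a1 was at 28.5 ± 9.73 FPKM in CKO and 19.8 ± 4.31 FPKM in WT (log2 fold change 0.46, adjusted p = 0.127, limma), and Col5a1 at 15.2 ± 1.80 FPKM in CKO and 11.8 ± 2.16 FPKM in WT (log2 fold change 0.35, adjusted p = 0.0862, limma). Col1a2 was at 92.7 ± 17.3 FPKM in CKO and 73.4 ± 13.1 FPKM in WT (adjusted p = 0.12, limma), and Col3a1 at 80.2 ± 18.1 FPKM in CKO and 66.4 ± 8.84 FPKM in WT (adjusted p = 0.305, limma).

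Of 16 ligands and receptors bound by members of the family, all 16 were tested, with a median log2 fold change of 0.11. Of these, 7 were higher (Bmp4, Tlr4, P2rx7, Tlr2, Cd44, Lrp1 and Tgfb2), beside 8.70% of all genes. Only Igf1r was lower, beside 7.59% of all genes. The count of lower genes was 0 in 8 of the 12 leave-one-out fits. Bmp4, a ligand that biglycan binds, was at 9.79 ± 2.36 FPKM in CKO (SD, n = 5) and 4.05 ± 1.16 FPKM in WT (SD, n = 7; adjusted p = 0.00163, limma). Tlr4, a receptor for biglycan, was at 7.48 ± 0.632 FPKM in CKO and 4.29 ± 0.836 FPKM in WT (adjusted p = 0.00335, limma). P2rx7, an ATP-gated channel that biglycan engages in macrophages, was at 7.52 ± 1.03 FPKM in CKO and 4.27 ± 0.81 FPKM in WT (adjusted p = 0.00478, limma). These 3 did not overlap between the genotypes. In the whole list 4 of 16 did not overlap, beside 7.73% of all genes. In the fit with a replicate block, described below, Tlr4 and P2rx7 were not called (adjusted p = 0.0668 and 0.0527, limma). Macrophages also express Tlr2, Tlr4, P2rx7 and Cd44. The summed macrophage markers were at 1559 to 4604 FPKM in CKO and 447 to 1393 FPKM in WT, and their part in these levels was not tested.

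Of 15 proteases known to cut members of the family, 9 were tested and Mmp12 was higher and 0 lower, with a median log2 fold change of 0.20. At an unadjusted p under 0.05, 4 were higher and 1 lower. The 1 of 9 called higher stands near the 8.70% of all genes called higher. The 0 called lower stands beside 7.59% of all genes. Mmp12, the macrophage elastase, was at 25.1 ± 17.1 FPKM in CKO (SD, n = 5) and 2.38 ± 2.10 FPKM in WT (SD, n = 7), without overlap (adjusted p = 0.000843, limma). Adamts5, an aggrecanase, was at 3.41 ± 0.536 FPKM in CKO and 6.39 ± 2.91 FPKM in WT (adjusted p = 0.0894, limma), and Mmp9, a gelatinase, at 2.69 ± 0.652 FPKM in CKO and 1.54 ± 0.83 FPKM in WT (adjusted p = 0.0897, limma). Without the unnumbered WT library both passed (adjusted p = 0.021 and 0.0238, limma), Adamts5 lower and Mmp9 higher.

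**Figure D5:**
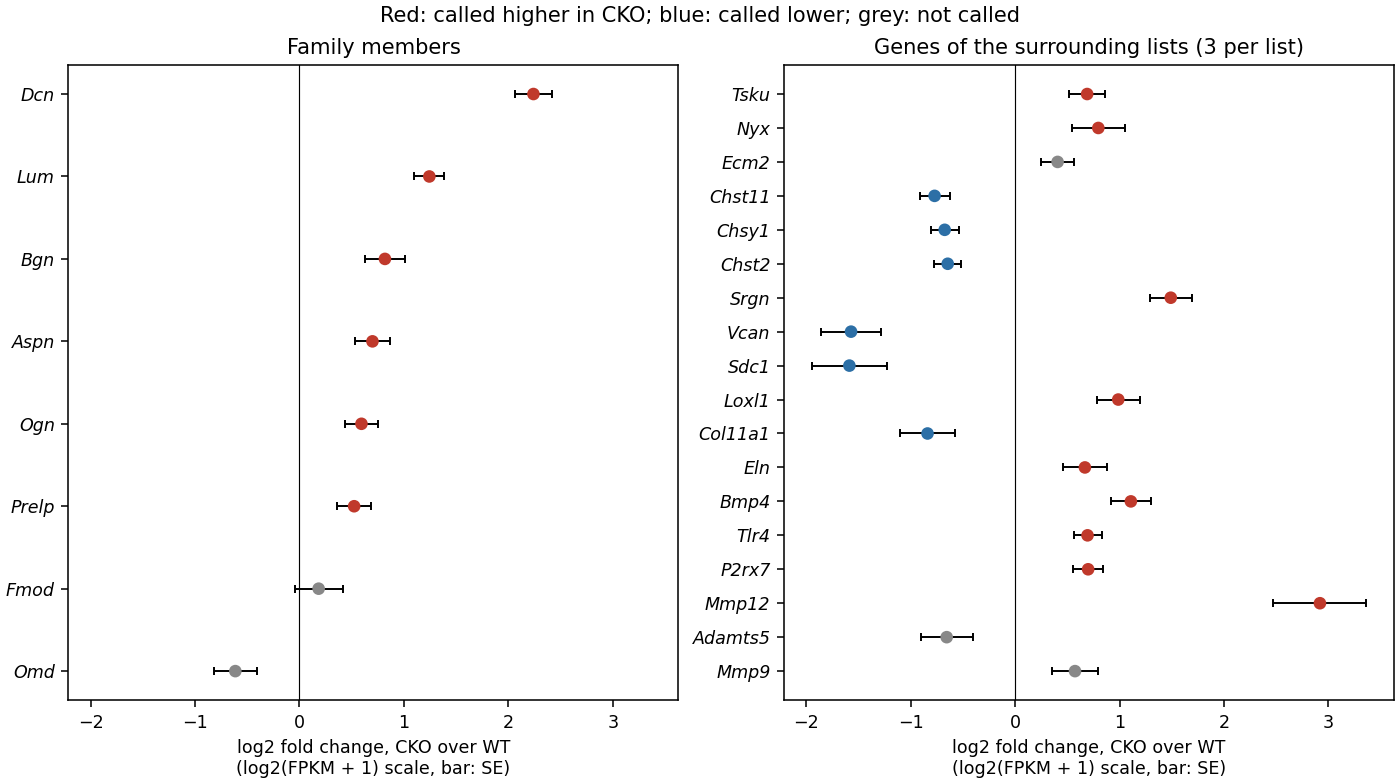
Log2 fold change of CKO over WT with its SE on the log2(FPKM + 1) scale, for the 8 members tested (left) and 3 genes of each surrounding list (right). Red marks genes called higher, blue called lower and grey not called. The 3 genes are those with the smallest p of their list, so they do not stand for the whole list. Members range from -0.61 for Omd to 2.24 for Dcn, and the chain-building enzymes Chst11, Chsy1 and Chst2 lie below 0.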

How the data were processed

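The deposited table holds FPKM of 24255 genes in 12 ovary libraries (5 CKO, 7 WT) beside columns for the authors' own comparison (a log2 fold change with its p-value and its q-value). The submitters' processing notes name TopHat2 2.0.13, Cufflinks 2.2.1, Cuffdiff and the build mm10, without their roles. The annotation, the scaling and any strand setting were not given in the sources used here, per the labels and header. The authors' log2 fold change is CKO over WT, within 0.01, in 99.9% of 13045 genes above 1 FPKM on average.

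Values were analysed as log2(FPKM + 1) in R 4.3.3, which understates changes of low genes. Testing covered genes that reached 1 FPKM in 5 libraries or more, with limma 3.58.1 (trended, group as the only term, two-sided, Benjamini-Hochberg, threshold 0.05). On simulated data, the fit recovered 79% of genes given a log2 change of 1 and 94% of those given 2, and 6.49% of calls were unchanged genes. The simulation changed 200 genes with a mean log2(FPKM + 1) above 2 and used independent normal noise. Its rates therefore do not cover changes of low genes or genes that vary together. Relative depth came from steps of low values in genes with a single transcript, of which 59.2% to 66.0% per library lay within 0.15 of a whole fragment number. The step was set from these same values, so this share is no independent check of the depth. Mean relative depth was 1.12 ± 0.302 in CKO (SD, n = 5) and 1.09 ± 0.205 in WT (SD, n = 7). Positions are from GENCODE M21 on mm10. The members and lists were chosen with earlier results of these data known. The genes named are all members, Mtor, the 3 smallest p of each surrounding list and the 5 genes most like Dcn, and marker genes stand beside results. Alternatives covered the pseudocount, the filter, scaling, array weights, a replicate block and leaving out each library. Leaving out pairs of libraries was chosen after seeing the data.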

Additional observations from a re-analysis of the deposited data

Results flagged for a closer look

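In 3 of 16 sets of values (8 members in each genotype), 1 library lay far from the rest of its group by Dixon's test on FPKM. Chance gives about 1 in 20. The test was not run on the log2(FPKM + 1) scale of the fits, where high values stand out less. Lum was at 549.6 FPKM in CKO replicate 2, against 338 to 390 FPKM in the other CKO libraries. Fmod was at 11.3 FPKM in WT replicate 1, against 4.92 to 7.36 FPKM in the other WT libraries. Omd was at 36.2 FPKM in WT replicate 2, against 13.5 to 19.3 FPKM in the other WT libraries.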

How the results depend on the processing

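Dcn, Lum and Bgn were called higher in all fits tried, and all 630 alternative fits of the named genes other than Nosip and Shisa2 kept the direction of the log2 fold change. Nosip and Shisa2, which were not called, changed sign in the replicate block (0.024 and 0.056), in the same libraries without the block (0.024 and 0.056) and without CKO replicates 1 and 5 (0.015 and 0.050). Leaving out 1 library, Nosip ranged from -0.11 to 0.053 and Shisa2 from -0.26 to 0.058. Deviations of same-numbered libraries of the groups correlated between -0.07 and 0.09 over 4 pairs. Differently numbered libraries were not compared, so whether the numbers pair the libraries was not settled. The replicate block, fitted to 8 libraries, called 702 genes higher and 564 lower, and 3 members higher, Dcn, Lum and Bgn. The same 8 libraries without the block gave 850 genes higher and 646 lower, and the same 3 members higher. Ogn, Aspn and Prelp were not called in either. Without CKO replicates 1 and 5, 671 genes were higher and 4 members remained, without Ogn and Aspn. On the TPM scale, 1 member, Omd, was called lower, and Ogn and Prelp were not called. With all genes above 0 tested, Prelp was not called. The TPM scale moved the median of all genes to -0.09 and the calls to 880 higher and 1468 lower, against 1145 and 999 as deposited. Leaving out 1 library, 4 to 6 members were higher and 0 to 1 lower.

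For the lists, counts under alternatives were these. Related leucine-rich genes higher numbered 1 with a pseudocount of 0.1, with no filter and on the TPM scale, 0 without either pair of CKO libraries, and 1 to 2 leaving out 1 library, with 0 to 1 lower. Other core proteins higher numbered 1 on the TPM scale and in the 8 libraries with or without the block (1 to 2 leaving out 1 library). Those lower numbered 2 with no filter, with the block and without replicates 1 and 5 of CKO, and 1 with CKO replicates 2 and 3 left out (2 to 4 leaving out 1 library). Collagen and assembly genes higher numbered 1 with no filter, on the TPM scale and with the block, and 4 with array weights (1 to 3 leaving out 1 library), and those lower 0 in 6 settings and 0 to 1 leaving out 1 library. Ligands and receptors higher numbered 4 with the block and 6 in the same libraries without it, and those lower 0 in 4 settings and 0 to 1 leaving out 1 library. Proteases higher numbered 2 with the block and without CKO replicates 1 and 5, and 1 to 2 leaving out 1 library, with 0 to 1 lower. The cause of these moves was not tested. Within WT, r of Dcn with Ogn ranged from -0.58 to 0.22 and with Omd from -0.029 to 0.32 leaving out 1 library. Low FPKM values rest on few fragments.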
